A study of Mus musculus with 4 samples.

Results

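The genes described here are 47 regulators and effectors of the cell division cycle, measured in mouse invariant natural killer T (iNKT) cells from CD4-Vα14Tg and WT mice. They were chosen by name: a gene was included when a probe set of the array carried its symbol and no other. This held for 45 of the 47, out of 22180 genes named in this way. Ccne2 and Ccnb1 were not analysed here. All 45 were bright enough to be tested, which required at least 2 of the 4 arrays to reach a floor set at the 40th percentile (a log2 value of 4.65 to 4.69). This filter was passed by 13602 genes. Birc5 lay closest to that limit, at 4.49 to 5.15. The genes were split by the stage they act in: 12 control G1 and entry into S phase, 14 act in S phase and 19 act in mitosis or peak around it.

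iNKT cells are T cells whose semi-invariant receptor recognises lipids on CD1d. In CD4-Vα14Tg mice a Vα14 T cell receptor α chain transgene is driven by the CD4 promoter, which is active in thymocytes and in CD4+ T cells, and the WT mice are the controls without it. Each genotype was measured on 2 whole-transcript arrays, numbered replicates 1 and 2, with biotinylated cRNA from total RNA. The labels give the cells as iNKT cells and the RNA source as frozen tissue, and give no organ, sorting gate, strain, age or sex. Nothing says that the arrays hold different animals, so the p-values measure the spread between arrays, which may be technical.

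A cell leaves G1 when D-type cyclins with CDK4 or CDK6, and then cyclin E with CDK2, phosphorylate the retinoblastoma protein and free E2F factors. E2F factors switch on the genes of DNA replication, and a later wave of genes, bound by the MuvB complex with B-MYB and FOXM1, serves chromosome segregation and cytokinesis. iNKT cells divide strongly after positive selection in the thymus and become largely quiescent as they mature. The S phase and mitosis genes therefore mark cycling cells in such a sample. In bulk RNA a larger share of cycling cells and more transcript per cell cannot be told apart.

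The arrays were alike in overall level, with medians over all probe sets from 5.04 to 5.07. Of the 13602 genes tested, 265 passed limma's test at an adjusted p under 0.05, which is 1.95%. The median log2 difference of all genes tested was -0.02, and the median difference between 2 arrays of one genotype was 0.14 in size in both CD4-Vα14Tg and WT.

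Mitosis genes measured higher in CD4-Vα14Tg iNKT cells as a group, and none of them passed the test singly. All 19 had a positive difference of means, against 43.9% of all genes tested. The median of these log2 differences was 0.48 (1.39-fold), and they ranged from 0.13 for Kif20a to 0.91 for Kif11. The count of calls was 0 of 19 by limma at an adjusted p under 0.05, and 5 of 19 had an unadjusted p under 0.05, all higher, against 4.62% of all genes tested that were higher at that level. The arrays of the genotypes did not overlap for 8 of the 19, against 15.7% of all genes tested that were apart and higher. The 19 genes largely shared an array order, described below, so they are not independent measures of a genotype difference. The SD between replicates of the array medians was 0.33 for mitosis genes, against 0.07 for S phase and 0.07 for G1 genes. The size of the shift rested on single arrays, and replicate 2 mostly exceeded replicate 1 in both genotypes, as given below. Leaving out CD4-Vα14Tg replicate 2 gave a median of 0.17 with 16 of 19 positive, and leaving out WT replicate 1 gave 0.24 with 17 of 19 positive. Leaving out WT replicate 2 or CD4-Vα14Tg replicate 1 raised it to 0.69 or 0.73. Without WT replicate 2, Kif11 and Kif23 passed the test (limma adjusted p = 0.0363 and 0.0427).

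**Figure D1:**
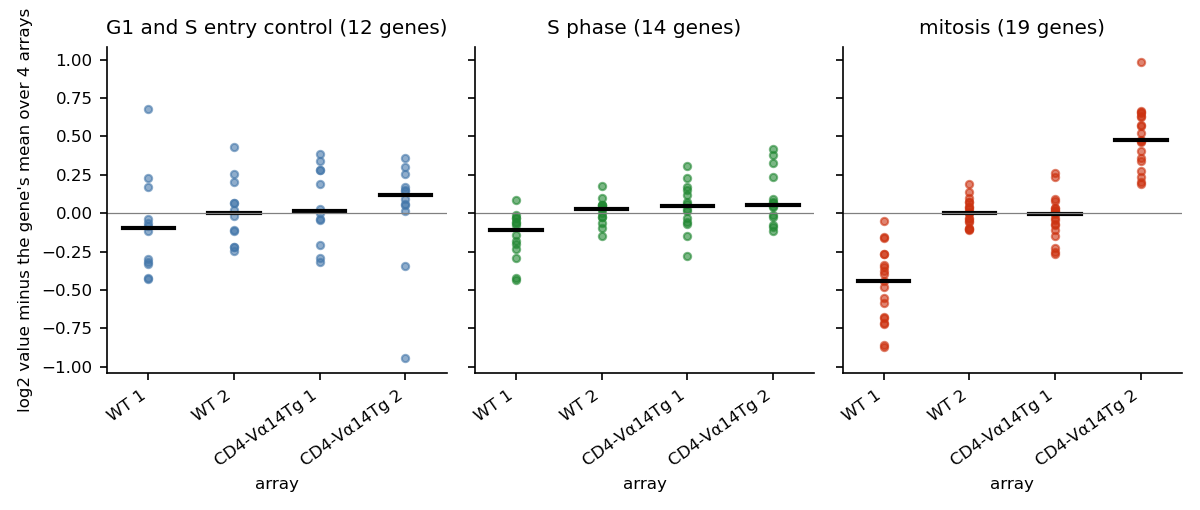
Log2 values of the 45 cell cycle genes on each of the 4 arrays, as the deviation from each gene's own mean over the arrays, with 1 point per gene and a black bar at the median of the list. Mitosis genes spread from a median of -0.44 on WT replicate 1 to 0.47 on CD4-Vα14Tg replicate 2, with both other arrays near 0, while the medians of the S phase genes stay between -0.11 and 0.06.

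The order of the arrays was shared among mitosis genes. WT replicate 1 was the lowest array for 18 of 19, all but Birc5, with a median deviation from the gene's mean of -0.44. WT replicate 2 and CD4-Vα14Tg replicate 1 lay together in the middle at 0.001 and -0.006. CD4-Vα14Tg replicate 2 was the highest array for 19 of 19, at 0.47. CD4-Vα14Tg replicate 1 exceeded WT replicate 2 in 8 of the 19 genes, and did so in 44.0% of all genes tested.

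Among the spindle motors, Kif11 encodes the kinesin that pushes the spindle poles apart. It read 7.54 and 7.97 on the CD4-Vα14Tg arrays and 6.43 and 7.27 on the WT arrays. Both CD4-Vα14Tg arrays lay above both WT arrays, but the WT arrays were 0.84 apart, so that the difference of 0.91 ± 0.27 (SE, 1.87-fold, limma adjusted p = 0.210) was about as large as the gap within WT. Kif23, a motor of the central spindle and of cytokinesis, read 6.54 and 6.75 in CD4-Vα14Tg and 5.60 and 6.22 in WT, again without overlap, with a difference of 0.74 ± 0.21 (1.67-fold, limma adjusted p = 0.174). Cenpe, the kinetochore kinesin that brings chromosomes to the metaphase plate, read 6.70 and 7.12 against 6.22 and 6.61 (difference 0.49 ± 0.19). Kif20a, another cytokinesis kinesin, had the smallest difference of the list, with 6.55 and 6.98 against 6.44 and 6.84. Its groups overlapped, and its difference turned to -0.09 with CD4-Vα14Tg replicate 2 removed and to -0.07 with WT replicate 1 removed.

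Top2a encodes the topoisomerase that untangles sister chromatids. It read 8.21 and 8.74 in CD4-Vα14Tg and 7.39 and 8.11 in WT, a difference of 0.72 ± 0.26 (1.65-fold, limma adjusted p = 0.322) that lay between 0.36 and 1.08 with any single array removed. Mki67, the gene of the proliferation antigen Ki-67, read 9.56 and 10.03 against 9.08 and 9.56. The lower CD4-Vα14Tg array exceeded the higher WT array by only 0.003, and the difference of 0.48 ± 0.21 (1.39-fold, limma adjusted p = 0.454) lay between 0.24 and 0.72 with any single array removed. Tpx2 and Nusap1 encode microtubule-binding factors of spindle assembly. Tpx2 read 6.61 and 7.25 against 5.87 and 6.63 (difference 0.68 ± 0.29, limma adjusted p = 0.427). Nusap1 read 6.93 and 7.47 against 6.22 and 6.97 (difference 0.60 ± 0.27, limma adjusted p = 0.454). In both, CD4-Vα14Tg replicate 1 lay just under WT replicate 2. Cenpf, a kinetochore and nuclear matrix protein, had 0.30, also with overlap.

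The cyclins and their kinase behaved in the same way, with wide gaps between arrays of one genotype. Ccna2, the cyclin of S phase and G2, read 6.78 and 7.99 in CD4-Vα14Tg and 6.15 and 7.11 in WT. Its difference of 0.76 ± 0.42 (limma adjusted p = 0.599) had a 95% interval from -0.24 to 1.76, and the arrays of each genotype lay further apart than the means. Cdk1, the kinase that drives entry into mitosis, read 6.37 and 7.02 against 6.05 and 6.35, without overlap by a margin of 0.02. Ccnb2, a mitotic cyclin, read 7.54 and 7.75 against 7.28 and 7.62, with overlap. For the other regulators the differences ran from 0.15 to 0.58. Bub1 and Bub1b, kinases of the spindle checkpoint, had 0.58 and 0.41, and the mitotic kinases Aurka, Aurkb and Plk1 had 0.27, 0.33 and 0.37. Cdc20, the activator of the anaphase-promoting complex, had 0.26 and Birc5, which encodes survivin, had 0.15. Of these 7, Aurka and Cdc20 had groups of arrays that did not overlap, and their CD4-Vα14Tg arrays were also the closest to each other. Aurka read 7.05 and 7.16 against 6.81 and 6.86 (difference 0.27 ± 0.12, limma adjusted p = 0.451). Plk1 had -0.09 and Birc5 had -0.18 without CD4-Vα14Tg replicate 2, and Plk1 had -0.005 without WT replicate 1.

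**Figure D2:**
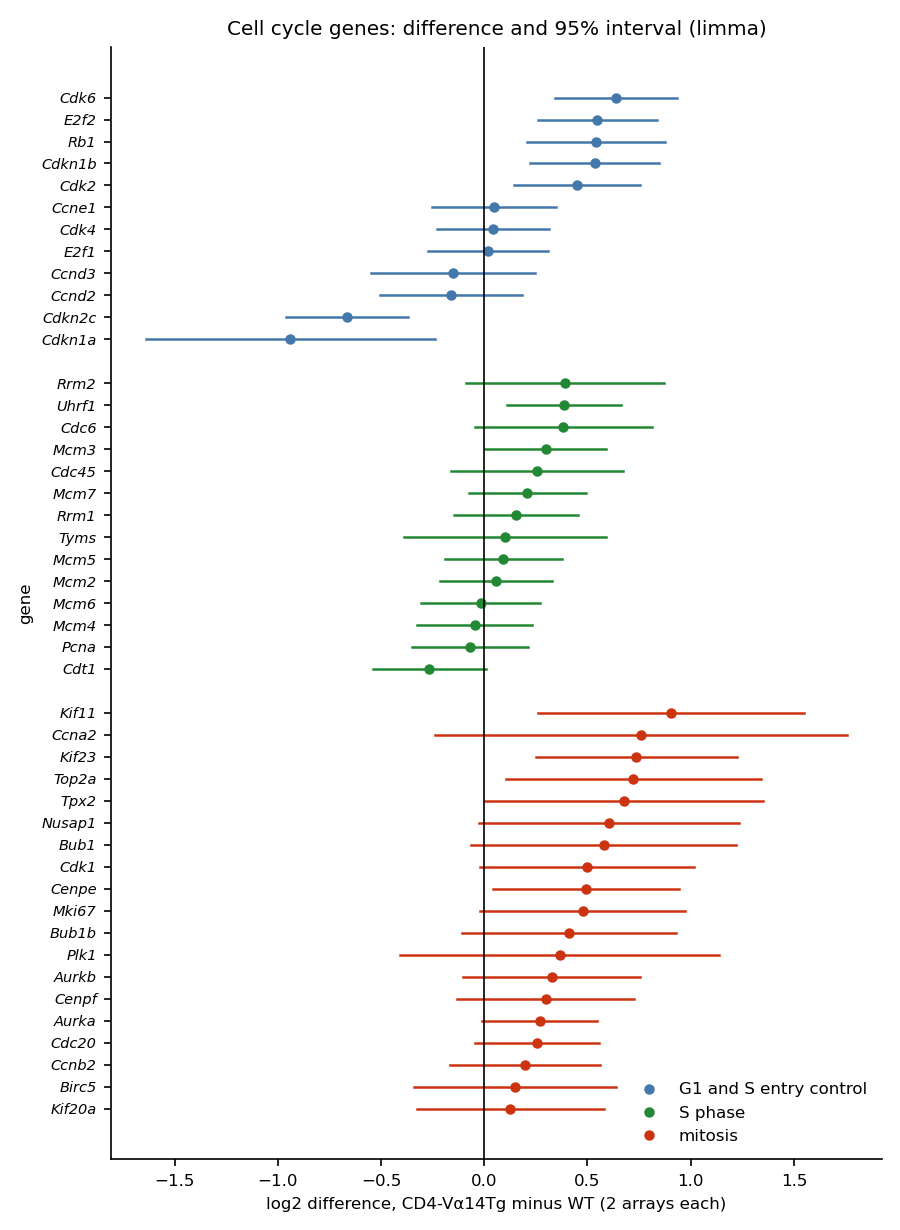
Log2 difference between CD4-Vα14Tg and WT means (2 arrays each) for the 45 cell cycle genes, with points at the difference and bars for limma's 95% interval, coloured by stage and ordered by size within each stage. All 19 mitosis points lie right of 0 with wide bars, while the G1 and S entry control genes lie on both sides, from -0.94 for Cdkn1a to 0.64 for Cdk6.

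Promoters were set beside these values because mitosis and S phase genes are known to carry different control elements. RefSeq promoter windows (GRCm38.p6, from 250 bases before to 50 bases after a start) were found for 15 of the 19 mitosis genes, 13 of the 14 S phase genes and 10 of the 12 G1 genes. The cell cycle genes homology region (CHR), bound by MuvB, was searched as TTTGAA on both strands. It stood in 11 of the 15 windows of mitosis genes (73.3%), in 2 of 15 windows of S phase genes and in 1 of 14 windows of G1 genes, against 17.9% of all 32851 windows and 12.2% of the windows of genes tested. With TTTAAA counted as well, the counts were 13 of 15 windows for mitosis, 5 of 15 for S phase and 3 of 14 for G1 genes. The share was then 27.6% of all windows and 19.6% of the windows of genes tested. The CCAAT box, bound by NF-Y, was in 13 of 15 windows of mitosis genes and 12 of 15 of S phase genes, against 37.4% of all windows. These matches describe the letters of the windows and are not binding sites shown here.

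The stretches before the start of the following 5 mitosis genes are shown because they carry TTTGAA upstream of the start, with capitals for each TTTGAA and each CCAAT on either strand (TTCAAA and ATTGG when read in reverse). Kif11 lies at chr19:37376262-37376381 on the plus strand. The others lie on the minus strand, Top2a at chr11:99024190-99024309, Cdk1 at chr10:69352913-69353032, Cdc20 at chr4:118437344-118437463 and Mki67 at chr7:135716380-135716499. Each is 120 bases long and ends at the base before the annotated start.
Kif11: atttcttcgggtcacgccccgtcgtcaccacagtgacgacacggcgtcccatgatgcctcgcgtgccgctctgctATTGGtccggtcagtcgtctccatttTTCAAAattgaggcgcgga
Top2a: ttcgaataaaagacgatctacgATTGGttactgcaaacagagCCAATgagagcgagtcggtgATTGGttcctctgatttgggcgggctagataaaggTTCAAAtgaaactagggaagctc
Cdk1: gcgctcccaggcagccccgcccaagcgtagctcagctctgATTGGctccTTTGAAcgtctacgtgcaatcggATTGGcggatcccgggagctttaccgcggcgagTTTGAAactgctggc
Cdc20: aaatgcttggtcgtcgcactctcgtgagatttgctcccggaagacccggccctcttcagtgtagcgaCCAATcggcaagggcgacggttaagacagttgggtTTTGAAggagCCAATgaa
Mki67: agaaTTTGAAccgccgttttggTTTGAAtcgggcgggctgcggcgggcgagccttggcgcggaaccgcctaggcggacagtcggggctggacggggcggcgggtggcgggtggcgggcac

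Kif11, Top2a and Cdc20 each hold 1 TTTGAA in the shown stretch, and Cdk1 and Mki67 hold 2. Top2a holds 3 CCAAT boxes there and Mki67 holds 0, its boxes lying further upstream in the window. Aurka, Bub1b, Cenpf, Kif23 and Plk1 had their matches after the start, at most 40 bases downstream.

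S phase genes had smaller differences than mitosis genes. Differences were positive for 10 of 14, their median was 0.13 on the log2 scale (1.09-fold) and they ran from -0.27 to 0.39. The count of calls was 0 by limma, and 2 of 14 had an unadjusted p under 0.05, both higher, against 4.62% of all genes tested. Groups of arrays did not overlap for 6 of 14 that were higher, against 15.7% of all genes tested, and for 1 that was lower, against 23.4%. The median lay between 0.07 and 0.19 when each array was left out in turn.

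Uhrf1, which carries DNA methylation through replication, had the largest test statistic of the list. It read 7.76 and 7.84 in CD4-Vα14Tg and 7.37 and 7.45 in WT, with close arrays and no overlap, and a difference of 0.39 ± 0.12 (1.31-fold, limma adjusted p = 0.217) that lay between 0.34 and 0.43 with any single array removed. Mcm3, a subunit of the replicative helicase, read 8.78 and 8.62 against 8.35 and 8.45 (difference 0.30 ± 0.12, limma adjusted p = 0.417), also without overlap. The other helicase subunits Mcm2, Mcm4, Mcm5, Mcm6 and Mcm7 had differences of 0.06, -0.05, 0.09, -0.02 and 0.21. Of these, Mcm7 read 8.52 and 8.39 against 8.21 and 8.28, without overlap. The 6 subunits of the one ring spanned from -0.05 to 0.30, and the signs of Mcm4 and Mcm6 turned under quantile normalization of the named probe sets.

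The licensing factors went apart. Cdc6, which loads the helicase, read 7.30 and 7.07 in CD4-Vα14Tg and 6.56 and 7.05 in WT (difference 0.38 ± 0.18, limma adjusted p = 0.501), where WT replicate 1 stood alone below the other arrays. Cdt1, its partner in loading, was the gene of the list that was lower without overlap, at 7.35 and 7.39 against 7.59 and 7.68 (difference -0.27 ± 0.12, limma adjusted p = 0.451). Cdc45, which activates the helicase, read 6.03 and 6.43 against 5.81 and 6.14 (difference 0.25) and overlapped. Pcna, the sliding clamp of DNA polymerases, read 10.94 and 10.99 against 10.97 and 11.10, a difference of -0.07 with a 95% interval from -0.35 to 0.21.

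Of the genes for deoxynucleotide supply, Rrm2, the regulated subunit of ribonucleotide reductase, read 6.78 and 7.23 in CD4-Vα14Tg and 6.39 and 6.84 in WT. Its arrays were ordered like those of the mitosis genes, the groups overlapped, and the difference was 0.39 ± 0.20 (limma adjusted p = 0.560). A second, dim probe set of Rrm2 had -0.26, at values from 3.36 to 3.90. The large subunit gene Rrm1 read 8.74 and 8.77 against 8.49 and 8.71 (difference 0.16), without overlap. Tyms, thymidylate synthase, read 6.32 and 6.98 against 6.53 and 6.58, so that the CD4-Vα14Tg arrays lay on either side of WT. Its difference of 0.10 was -0.23 without CD4-Vα14Tg replicate 2.

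E2F motifs were searched in the same promoter windows as TTTGGCGC, TTTCCCGC, TTTCGCGC and TTTGCCGC on both strands, with overlapping matches counted. At least 1 was present in 7 of 15 windows of S phase genes (46.7%), in 2 of 14 of G1 genes and in 1 of 15 of mitosis genes, against 2.26% of all windows and 3.74% of the windows of genes tested. With the first T dropped, the counts of windows were 11 of 15 for S phase and 2 of 15 for mitosis genes. The share was 9.57% of all windows and 15.3% of the windows of genes tested. The next stretches are shown because they carry E2F motifs upstream of the start, with E2F motifs and CCAAT boxes in capitals. E2F motifs were not marked in the stretches of mitosis genes above. The match among mitosis genes, TTTCGCGC in Cdk1, lay at -131 from the start, outside its shown stretch. Mcm6 is at chr1:128359706-128359825 on the minus strand, Cdc6 at chr11:98908001-98908150 and Mcm5 at chr8:75109349-75109508, both on the plus strand. They end at the base before the start.
Mcm6: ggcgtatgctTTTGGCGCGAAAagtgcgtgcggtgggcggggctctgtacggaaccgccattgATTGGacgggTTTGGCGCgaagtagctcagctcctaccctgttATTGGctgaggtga
Cdc6: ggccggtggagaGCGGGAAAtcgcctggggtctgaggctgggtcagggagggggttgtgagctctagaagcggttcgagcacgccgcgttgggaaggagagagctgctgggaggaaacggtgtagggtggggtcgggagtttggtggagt
Mcm5: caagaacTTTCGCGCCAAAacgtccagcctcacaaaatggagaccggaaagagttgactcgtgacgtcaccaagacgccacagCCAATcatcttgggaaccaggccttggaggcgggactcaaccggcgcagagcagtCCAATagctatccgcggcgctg

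Mcm6 holds 3 E2F matches in the stretch, of which the first pair overlap, Mcm5 holds 2 that overlap and Cdc6 holds 1 in reverse. Their log2 differences were -0.02, 0.09 and 0.38.

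Genes that control G1 and entry into S phase split into higher, lower and overlapping sets, and apart from Cdkn1a and Ccnd3 their arrays of one genotype lay within 0.32 of each other. Differences were positive for 8 of 12 genes, with a median of 0.04 on the log2 scale. The count of calls was 0 by limma, while 7 had an unadjusted p under 0.05, against 11.7% of all genes tested. Of these, 5 were higher (Cdk6, E2f2, Rb1, Cdkn1b and Cdk2), against 4.62% of all genes tested, and 2 were lower (Cdkn2c and Cdkn1a), against 7.04%. The groups of arrays did not overlap for these 7, where 15.7% of all genes tested were apart and higher and 23.4% apart and lower, while the other 5 genes overlapped with differences from -0.16 to 0.05.

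Of the kinases, Cdk6, a partner of D-type cyclins, read 8.79 and 8.75 in CD4-Vα14Tg and 8.03 and 8.23 in WT. The CD4-Vα14Tg arrays were nearly equal and both above WT. Its difference of 0.64 ± 0.13 (1.56-fold) just missed the threshold (limma adjusted p = 0.0603) and passed under some alternatives (adjusted p from 0.0225 to 0.225 over all of them). Cdk2, the cyclin E and cyclin A partner, read 8.59 and 8.48 against 7.98 and 8.19 (difference 0.45 ± 0.13, limma adjusted p = 0.188), without overlap. Cdk4, the other cyclin D kinase, read 9.89 and 9.88 against 9.81 and 9.89, a difference of 0.04 with a 95% interval from -0.23 to 0.31. The D-type cyclin gene Ccnd2 read 10.87 and 11.13 against 11.04 and 11.28, with overlap (difference -0.16). Ccnd3 and the cyclin E gene Ccne1 had -0.15 and 0.05, also with overlap, and their sign turned without CD4-Vα14Tg replicate 1 (Ccnd3) or without CD4-Vα14Tg replicate 2 or WT replicate 1 (Ccne1).

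The inhibitors of these kinases went in opposite directions. Cdkn2c, which encodes p18 and blocks CDK4 and CDK6, read 5.48 and 5.46 in CD4-Vα14Tg and 6.03 and 6.23 in WT. The CD4-Vα14Tg arrays agreed closely and lay below both WT arrays. The difference was -0.66 ± 0.13 (1.58-fold lower), with a limma adjusted p of 0.0521 that ran from 0.0176 to 0.239 over the alternatives. Cdkn1a, which encodes p21, read 7.12 and 6.17 against 7.79 and 7.37. Both CD4-Vα14Tg arrays were below WT but nearly 1 log2 unit apart, and the difference of -0.94 ± 0.30 (1.92-fold lower, limma adjusted p = 0.235) lay between -1.41 and -0.47 with any single array removed. Without CD4-Vα14Tg replicate 1 it passed the test (limma adjusted p = 0.0282). Cdkn1b, which encodes p27 and is a hallmark of resting T cells, was on the other side at 9.32 and 9.08 against 8.62 and 8.71 (difference 0.54 ± 0.13, 1.45-fold, limma adjusted p = 0.122).

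**Figure D3:**
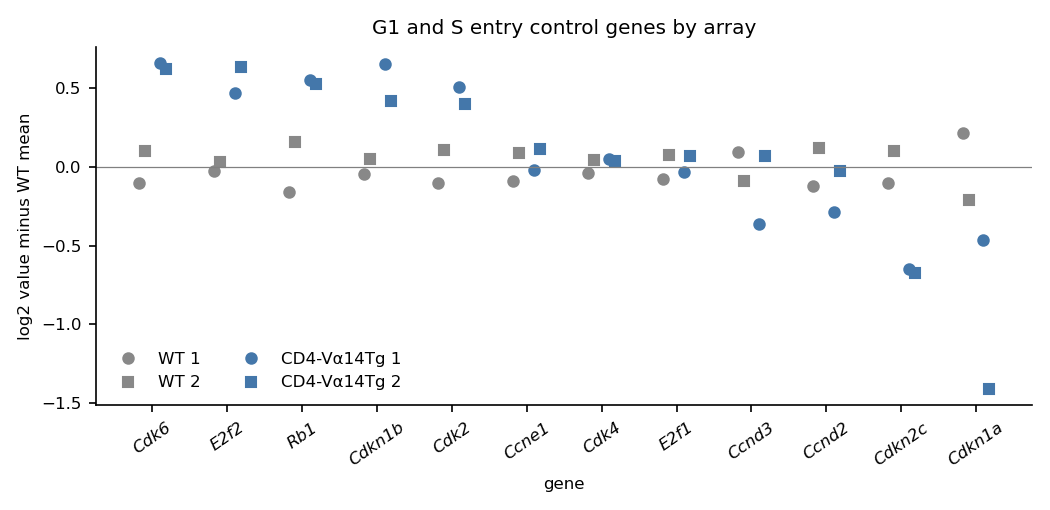
Log2 values of the 12 G1 and S entry control genes on each array, minus the gene's WT mean, with WT arrays in grey and CD4-Vα14Tg arrays in blue and circles and squares for replicates 1 and 2. Both CD4-Vα14Tg arrays lie above both WT arrays for Cdk6, E2f2, Rb1, Cdkn1b and Cdk2 and below them for Cdkn2c and Cdkn1a.

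Of the targets of these kinases, Rb1, the gene of the retinoblastoma protein, read 10.16 and 10.13 in CD4-Vα14Tg and 9.45 and 9.77 in WT (difference 0.54 ± 0.14, limma adjusted p = 0.143). A second probe set of Rb1 had a difference of 0.39, with the WT arrays 0.96 apart (5.74 and 6.69). E2f2, an E2F factor that restrains T cell proliferation as well as driving S phase genes, read 6.61 and 6.78 against 6.12 and 6.18, without overlap, at a difference of 0.55 ± 0.12 (1.46-fold, limma adjusted p = 0.0906). E2f1, the classical activator, read 6.25 and 6.36 against 6.21 and 6.36. Its difference of 0.02 had a 95% interval from -0.27 to 0.31.

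**Figure D4:**
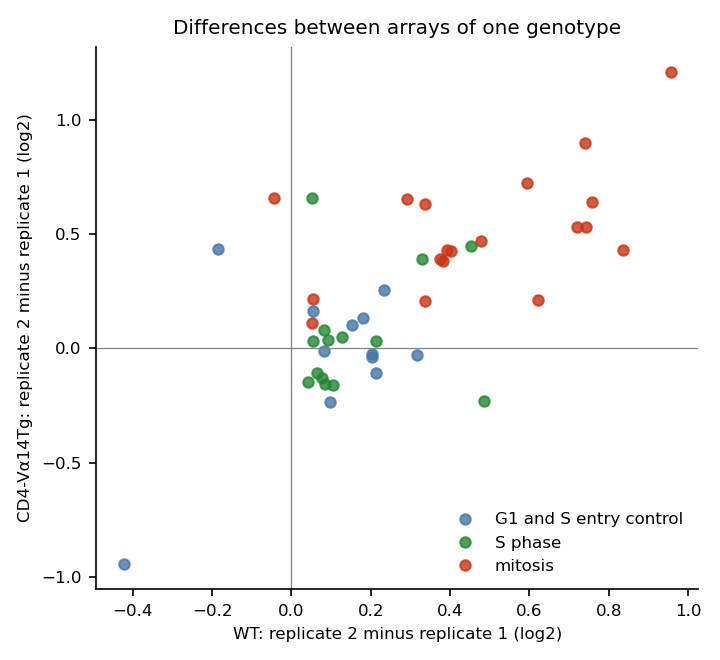
Difference between the 2 arrays of one genotype (replicate 2 minus replicate 1, log2) for the 45 cell cycle genes, WT on the x axis and CD4-Vα14Tg on the y axis, coloured by stage. Of the 19 mitosis genes, 18 lie in the upper right quadrant, while the S phase genes lie on both sides of 0 on the y axis with a median of 0.03.

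The gap between arrays of one genotype was wider for mitosis genes than for the other lists. Replicate 2 exceeded replicate 1 in both genotypes for 18 of 19 mitosis genes, against 32.1% of all genes tested, and the exception was Birc5. The median size of the gap, whatever its sign, was 0.47 in CD4-Vα14Tg and 0.40 in WT, beside the median difference between genotypes of 0.48. For S phase genes it was 0.14 in CD4-Vα14Tg and 0.09 in WT, and for G1 genes 0.12 and 0.19. Among mitosis genes Ccna2 had the widest gaps, 1.21 in CD4-Vα14Tg and 0.96 in WT. Plk1 had 0.90 and 0.74, and Kif11 had 0.43 and 0.84. Cdkn1a had the opposite order, with replicate 2 lower by 0.95 in CD4-Vα14Tg and by 0.42 in WT.

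Between arrays of different genotype, the median difference of the mitosis genes was 0.32 for CD4-Vα14Tg replicate 1 over WT replicate 1 and 0.50 for replicate 2 over replicate 2. It was 0.95 for CD4-Vα14Tg replicate 2 over WT replicate 1 and -0.03 for CD4-Vα14Tg replicate 1 over WT replicate 2. In the order given, these differences were positive for 18, 19, 19 and 8 of the 19 mitosis genes. Of all 13602 genes tested, 6414, 5781, 6537 and 5988 were positive in the same order. The labels do not say that equal numbers mark shared animals, litters or days.

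A list of other mitosis genes had the same lowest and highest arrays, by median deviations of -0.32 on WT replicate 1 and 0.38 on CD4-Vα14Tg replicate 2. Between them, CD4-Vα14Tg replicate 1 (-0.07) lay below WT replicate 2 (0.06). It exceeded WT replicate 2 in 17 of the 62 tested genes, against 44.0% of all genes tested. Of these 62 genes, 57 had a positive difference and 55 were higher on replicate 2 in both genotypes. The median difference of 0.31 dropped to 0.08 with CD4-Vα14Tg replicate 2 or WT replicate 1 removed, and was 0.48 with WT replicate 2 and 0.56 with CD4-Vα14Tg replicate 1 removed. None passed limma's test as higher, and 10 of 62 were higher at an unadjusted p under 0.05, against 4.62% of all genes tested. The largest test statistics among those were of Cenpn, a centromere protein (difference 0.67, limma adjusted p = 0.0697), Smc4, a condensin subunit (0.55, 0.157), Melk, a kinase of dividing cells (0.54, 0.175), and Ncapg2, a condensin II subunit (0.65, 0.208). Of 49 other S phase genes, 35 were positive, the median was 0.09 and 0 were called by limma. At an unadjusted p under 0.05 there were 6, all higher, against the same 4.62%, led by the DNA polymerase subunit gene Pole2 (0.60, adjusted p = 0.177) and the checkpoint adaptor gene Clspn (0.46, adjusted p = 0.183). Pole, a polymerase subunit gene, and Brca1, of DNA repair, followed with 0.41 and 0.43.

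Of the list of other mitosis genes, 1 gene passed the test, and it was lower. Cks2, which encodes a small subunit of CDK complexes, fell 1.65-fold in CD4-Vα14Tg cells, where 1.34% of all genes tested were called lower and 0.610% higher. It read 8.61 and 8.41 in CD4-Vα14Tg and 9.25 and 9.22 in WT, with the groups far apart and a difference of -0.72 ± 0.13 (SE, limma adjusted p = 0.0379). Removal of any single array ended the call (limma adjusted p between 0.0689 and 0.155), as did averaging its 4 probe sets (0.0510), while the difference stayed between -0.82 and -0.63. Cks1b, its close relative, had 0.19 (limma adjusted p = 0.643).

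Of 24 other genes of G1 and S entry, limma called 0, with 3 at an unadjusted p under 0.05, against 11.7% of all genes tested, and a median of -0.02. Ccnd1, a cyclin D gene little used by T cells, had -0.46 at dim values from 5.10 to 5.84 (adjusted p = 0.317), the CDK inhibitor gene Cdkn1c had -0.32, and Fbxw7, which marks cyclin E for degradation, had 0.33. E2f8, a repressor E2F, had 0.63 with the array order of the mitosis genes (6.73 and 7.40 against 6.11 and 6.76). Of 11 tested factors of T cell quiescence limma called 0, with 2 at an unadjusted p under 0.05, against the same 11.7%. Foxo1, a transcription factor of resting T cells, read 9.26 and 9.42 against 8.79 and 8.72 (difference 0.58, limma adjusted p = 0.0721), and its difference was 0.24 (adjusted p = 0.486) when its 2 probe sets were averaged. Btg2, an antiproliferative gene, had -0.59 (adjusted p = 0.198). Foxo3, a relative of Foxo1, had -0.25, and Klf4, which restrains division, had -0.30.

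**Figure D5:**
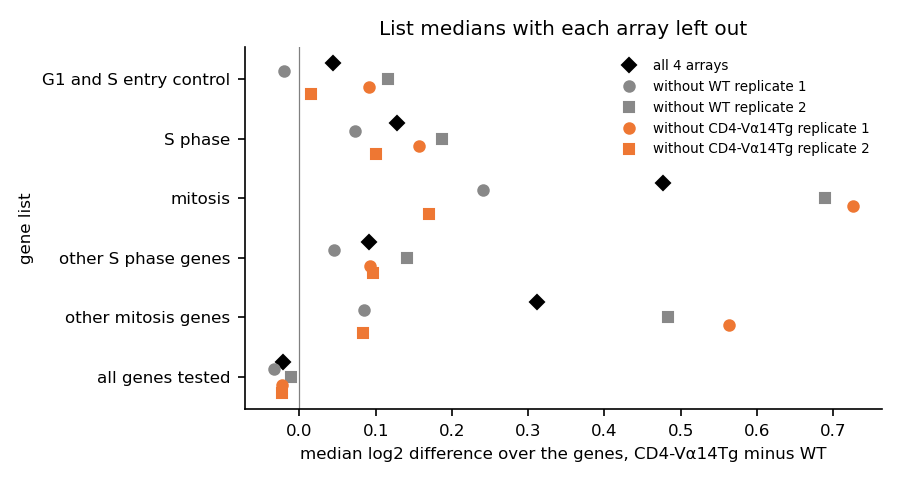
Median log2 difference between CD4-Vα14Tg and WT for each list of genes, with all 4 arrays (black diamonds) and with each array left out (grey for WT, orange for CD4-Vα14Tg, circles for replicate 1 and squares for replicate 2). Mitosis genes range from 0.17 to 0.73 and stay right of 0, while all genes tested stay near -0.02.

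Markers of the labelled cells were present: Zbtb16, the iNKT lineage factor gene, read 11.08 to 11.39 and Cd3e 11.95 to 12.45 over the arrays. All 8 named iNKT and T cell markers lay above the filter. Of their differences 7 were negative, against 7604 of all 13602 genes tested. Those of Cd3g, Cd4, Gata3 and Cd5 were small, from -0.09 to -0.002. Il2rb, the interleukin 2 and 15 receptor β chain gene, fell from 11.28 and 11.50 in WT to 10.46 and 10.71 (difference -0.80, limma adjusted p = 0.0427), a call that ended with any single array removed (0.0591 to 0.179). Since thymocytes cycle, their markers were read beside the mitosis genes. Of 8 named markers of double positive and early thymocytes, 5 lay below the filter, among them Rag2 (3.82 to 4.16), Cd8a (4.38 to 4.60) and Dntt (4.01 to 4.57). Rag2, Dntt and Ptcra were highest on CD4-Vα14Tg replicate 2, at 4.16, 4.57 and 6.14. Cd8a and Cd8b1 were highest on WT replicate 2, Cd24a on WT replicate 1, and Arpp21 and Ets2 on CD4-Vα14Tg replicate 1. The summed linear signal of these 8 was 588 and 529 on CD4-Vα14Tg replicates 1 and 2 and 499 and 453 on WT replicates 1 and 2. Ets2, the brightest of them, supplied 409, 311, 310 and 263 of these. The other 7 include the 5 that lay below the filter. These 7 summed to 179 and 218 on the CD4-Vα14Tg arrays and 189 and 190 on the WT arrays. CD4-Vα14Tg replicate 2 was thus highest and CD4-Vα14Tg replicate 1 lowest. Of 11 myeloid markers, 10 lay below the filter and Itgam rose at dim values, from 4.84 and 4.69 in WT to 5.42 and 5.44 (limma adjusted p = 0.0438), a call that ended with any single array removed (0.0842 to 0.206). Below the filter, Itgax went the other way, at 4.41 and 4.31 in CD4-Vα14Tg against 5.03 and 4.53 in WT. Lyz2 and Cd14 were also lower without overlap. The summed linear signal of the 10 myeloid markers other than Itgam was 195 and 188 in CD4-Vα14Tg and 208 and 188 in WT. Of 7 B and plasma cell markers, 5 lay below the filter. Cd79b, a B cell receptor chain gene above it, read 5.50 and 5.43 against 5.05 and 4.94, without overlap (difference 0.48, unadjusted p = 0.00479, limma adjusted p = 0.124). Sdc1, the other gene of this list above the filter, read 5.41 and 5.52 against 5.75 and 5.52, with overlap (difference -0.17). All 3 erythroid and platelet markers lay below the filter. The part of other cells in the mitosis gene differences was not tested.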

How the data were processed

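The deposited values are log2 expression, 1 value per probe set and array for 41345 probe sets, made by the authors with RMA (background correction, quantile normalization, probe summary) and Affymetrix Power Tools, per the submitters' processing notes. Their versions, their settings and the build behind the annotation were not given in the sources used here. Quantile normalization removes a change of total RNA.

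Probe sets with 1 gene symbol in the platform annotation (23521; 1814 had several and 16010 none) were used, with the brightest kept for the 1082 genes with several. The test between genotypes was limma's (version 3.58.1 under R 4.3.3, lmFit and eBayes, two-sided), with Benjamini-Hochberg adjustment over 13602 genes and 0.05 as the threshold. SE and 95% intervals are limma's. The number of arrays limits the precision. The fit was tested on simulated data with noise drawn independently for each gene and array. That simulation does not cover an array order shared among genes. Tables and figures used Python 3.11.15, pandas 2.3.3, numpy 2.4.6 and matplotlib 3.10.9.

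Members, lists and alternatives were chosen with earlier results of these data known, and the promoter motifs and p53 targets after seeing the values. Per-array values are given for up to 8 members with the largest absolute moderated t in each list, Mki67, Top2a and the CDK inhibitors, and some further members by role. Of other lists, called genes and up to 4 others with the largest absolute t are named, and Cks1b was chosen after its values were seen. The alternatives were filter, probe set choice, moderation, scaling, replicate block and each array left out.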

Additional observations from a re-analysis of the deposited data

How the results depend on the processing

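Under the 11 alternatives the medians of S phase and mitosis genes stayed positive. The median of G1 and S entry genes lay between -0.021 and 0.12 with single arrays removed. The number of the 45 genes called was 0 with all arrays, 2 with the stricter filter (Cdk6 and Cdkn2c), 1 with the mean of all probe sets (Cdkn2c), 1 with trend and robust moderation (Cdk6), 2 with quantile normalization of the named probe sets (Cdk6 and Cdkn2c), and 0 to 2 when 1 array was left out. Those at an unadjusted p under 0.05 numbered 14 with all arrays and 6 to 25 when 1 array was left out. All genes called numbered 265 with all arrays and 166 to 221 when 1 array was left out. Of the other cell cycle and quiescence genes 1 was called, with 2 under the stricter filter, 0 with the mean of all probe sets, 2 with trend and robust moderation and 0 to 1 when 1 array was left out. These alternatives were added for those lists after seeing the data. The cause was not tested.

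Of the 45 genes, 36 kept their sign whichever array was left out. The other 9 ranged from -0.37 to 0.068 (Ccnd3), -0.043 to 0.14 (Ccne1), -0.0565 to 0.0955 (E2f1), -0.10 to 0.0065 (Mcm4), -0.096 to 0.061 (Mcm6), -0.23 to 0.43 (Tyms), -0.085 to 0.815 (Plk1), -0.18 to 0.48 (Birc5) and -0.0855 to 0.34 (Kif20a). Quantile normalization of the named probe sets gave Mcm4 0.0028 and Mcm6 0.028.

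The replicate numbers were not shown to pair arrays, since the labels give no shared source. Over all genes tested the replicate differences of the genotypes correlated at 0.26. The correlation was 0.52 over the 19 mitosis genes, 0.50 over the 12 G1 genes and 0.19 over the 14 S phase genes. Over all 45 it was 0.66. These are correlations across genes that are not independent. With the replicate block, 674 genes were called, 12 of the 45 (8 mitosis genes, Cdk6, E2f2, Cdkn1a and Cdkn2c), 26 of the 45 had an unadjusted p under 0.05, and 16 of the other cell cycle and quiescence genes were called. With 2 arrays a group, the number of arrays limits what can be called.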

Other observations

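Cdkn1a is also a classical target of p53, so a list of p53 target genes, written after the values of Cdkn1a were seen, was read beside it. Of 20 tested, 13 had a negative difference, against 7604 of all 13602 genes tested. Their median log2 difference was -0.07 beside -0.02 for all genes tested. The count of calls was 0 by limma, and 5 of 20 had an unadjusted p under 0.05. Of these 4 were lower, against 7.04% of all genes tested, and 1 was higher, against 4.62%. Sesn2, a stress-induced regulator of mTORC1, read 5.03 and 5.04 in CD4-Vα14Tg and 5.65 and 6.06 in WT, without overlap (difference -0.82, limma adjusted p = 0.0536). Plk3, a stress-responsive polo-like kinase gene, had -0.67 (limma adjusted p = 0.0955) and Sesn1 had -0.43. Perp, a cell adhesion gene of the same list, lay on the other side at 6.60 and 6.67 against 6.03 and 6.01 (difference 0.61, limma adjusted p = 0.0516). Mdm2, the p53 antagonist, had 0.01, and the apoptosis gene Bbc3 had -0.30.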
